A study of Mus musculus with 12 samples.

Results

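Natriuretic peptide genes, the myosin heavy chain isoforms and a set of genes that respond to strain of heart muscle were examined in myocardium of diabetic mice and of diabetic mice given angiotensin IV. The 10 genes were Nppa, Nppb, Npr1, Npr3, Myh6, Myh7, Acta1, Ankrd1, Rcan1 and Xirp2, taken by gene symbol from 19505 genes measured on single-colour arrays, and each had 1 probe set. Vehicle had been injected for 5 days in control mice (NC). Diabetic mice (DM) had received streptozotocin, a toxin of pancreatic beta cells, on 5 days, and entered the study if their glucose after fasting reached 16.7 mM or more. Diabetic mice given angiotensin IV (DM_AngIV), a peptide made from angiotensin II, were made diabetic in that way and infused with 2.88 mg/kg/day from the end of week 8 to the end of week 24. Each group held 4 mice, all labelled with 6 months, and neither strain nor sex is stated in the labels. The groups allow diabetic hearts to be compared with control hearts, and diabetic hearts given the peptide with those not given it. DM_AngIV was also compared with NC, which had neither streptozotocin nor the peptide. In that comparison diabetes, the peptide and its infusion cannot be told apart. Infusion times are recorded only for DM_AngIV, and an effect of the infusion itself was not tested.

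Atrial and ventricular muscle release the natriuretic peptides when they are stretched. Both peptides bind Npr1, a receptor that makes cyclic GMP and through it relaxes vessels and promotes loss of sodium, while Npr3 removes the peptides from the circulation. The adult mouse ventricle contracts mainly with the fast myosin heavy chain Myh6. Under pressure load, low thyroid hormone or lack of insulin, rodent hearts are known to make more of the slow isoform Myh7, and under load also more Nppa, Nppb and Acta1, a set often called the fetal gene programme.

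The promoters of Acta1 and Xirp2 are shown because these were the 2 genes whose levels followed each other most closely over the 12 hearts, and those of Myh7 and Ankrd1 because this pair had the next highest Pearson's r, although by rank correlation Nppb with Xirp2 lay above it. Each is the sequence just upstream of the start, from RefSeq (GRCm38.p6), with matches to 6 motifs of cardiac and muscle factors in capitals.
Acta1, chr8:123894776-123895025, minus strand: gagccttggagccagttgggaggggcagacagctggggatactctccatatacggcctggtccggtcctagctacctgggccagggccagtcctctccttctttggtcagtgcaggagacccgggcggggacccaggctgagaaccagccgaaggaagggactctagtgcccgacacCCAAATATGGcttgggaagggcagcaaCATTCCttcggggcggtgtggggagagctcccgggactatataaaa
Xirp2, chr2:67445752-67445999, plus strand: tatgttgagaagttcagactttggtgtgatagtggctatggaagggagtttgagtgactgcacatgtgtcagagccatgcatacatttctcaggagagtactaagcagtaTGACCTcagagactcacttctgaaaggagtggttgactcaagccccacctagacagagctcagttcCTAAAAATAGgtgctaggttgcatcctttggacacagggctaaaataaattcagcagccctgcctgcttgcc
Myh7, chr14:54994627-54994876, minus strand: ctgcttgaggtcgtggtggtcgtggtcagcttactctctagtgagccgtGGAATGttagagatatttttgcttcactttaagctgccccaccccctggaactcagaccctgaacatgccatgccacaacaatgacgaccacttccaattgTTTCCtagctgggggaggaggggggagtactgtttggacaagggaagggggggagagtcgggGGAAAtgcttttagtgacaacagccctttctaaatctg
Ankrd1, chr19:36119845-36120094, minus strand: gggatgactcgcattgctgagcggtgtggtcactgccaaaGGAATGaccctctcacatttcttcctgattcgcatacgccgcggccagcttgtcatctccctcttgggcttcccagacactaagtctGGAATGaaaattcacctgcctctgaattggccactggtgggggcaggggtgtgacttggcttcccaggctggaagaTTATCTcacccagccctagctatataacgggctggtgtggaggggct

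The motifs searched, on both strands of the 250 bases before the start, were the M-CAT element CATTCC, the GATA motifs AGATAA and TGATAA, the thyroid hormone receptor core motif AGGTCA, the NFAT motif GGAAA, the CArG box of serum response factor and the MEF2 box. In the Acta1 promoter the capitals mark a CArG box and an M-CAT element. In the Xirp2 promoter they mark a thyroid hormone receptor core motif and a MEF2 box. The Myh7 promoter holds 1 M-CAT element and 2 NFAT motifs, and the Ankrd1 promoter holds 2 M-CAT elements and 1 GATA motif. No match overlapped a match to another motif in these promoters. The 10 genes had 12 promoter windows in that table, with 2 each for Myh7 and Rcan1. M-CAT elements were found in 5 of them, those of Nppb, Acta1, Myh6, Ankrd1 and 1 of the Myh7 windows, and in 12.6% of 32851 promoter windows of the same length. GATA motifs were found in 3, those of Nppa, Nppb and Ankrd1, and in 16.6% of all windows. NFAT motifs were found in 3 of the windows, both of Myh7 and 1 of Rcan1, and in 55.6% of all. The 2 Myh7 windows overlap, and their NFAT matches are the same 2 sites. The thyroid hormone receptor core was found in 1 window and in 14.0% of all, the CArG box in 1 and in 1.47%, and the MEF2 box in 1 and in 2.92%. The matches of Nppb and Myh6 and those of the Rcan1 window lie downstream of an earlier annotated start of the same gene, so they are not upstream of all its transcripts. These matches describe letters only, and binding was not measured.

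None of the 10 genes passed the threshold in any comparison. The values are log2 expression values, so a difference of 1 is a doubling. Groups were compared with limma over all 19505 genes, and a gene was called at a Benjamini-Hochberg adjusted p below 0.05. That rule called 0.0154% of all genes in DM against NC, 0% in DM_AngIV against DM and 1.02% in DM_AngIV against NC. At an unadjusted p below 0.05, limma gave 1 of the 10 genes in DM against NC (Npr3), 0 in DM_AngIV against DM and 5 in DM_AngIV against NC (Myh7, Acta1, Rcan1, Npr3 and Ankrd1), against 8.95%, 7.48% and 14.6% of all genes. Npr3 in DM against NC was higher, as were 4.69% of all genes, and in DM_AngIV against NC 3 of the 5 were higher and 2 lower, against 8.11% and 6.53% of all. The groups did not overlap for 0, 0 and 2 of the 10 genes, Myh7 and Rcan1 in the last comparison, against 4.54%, 5.01% and 9.83% of all genes. Of all genes, 5.63% lay without overlap higher in DM_AngIV than in NC, as Myh7 did, and 4.20% lower, as Rcan1 did. The median log2 fold change of the 10 genes was 0.0076 in DM against NC, 0.0045 in DM_AngIV against DM and −0.11 in DM_AngIV against NC, while that of all genes was −0.0010, −0.00071 and −0.0070. The 3 comparisons share arrays, so their values are not independent of each other.

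The spread within groups differed widely between the 10 genes, all of which were above background in all 12 arrays. Ranked among 8372 genes above background by their pooled SD within groups, Nppa (SD 1.60), Nppb (0.74), Acta1 (0.51), Myh7 and Ankrd1 (both 0.49) and Npr3 (0.39) lay between the 98.1 and the 99.9 percentile. Xirp2 (0.26) and Npr1 (0.25) lay at the 90.7 and 89.0 percentile, while Rcan1 (0.11) and Myh6 (0.085) lay at 13.1 and 4.62. The differences that could be seen with 4 arrays a group were thus smallest for Myh6 and Rcan1.

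**Figure D1:**
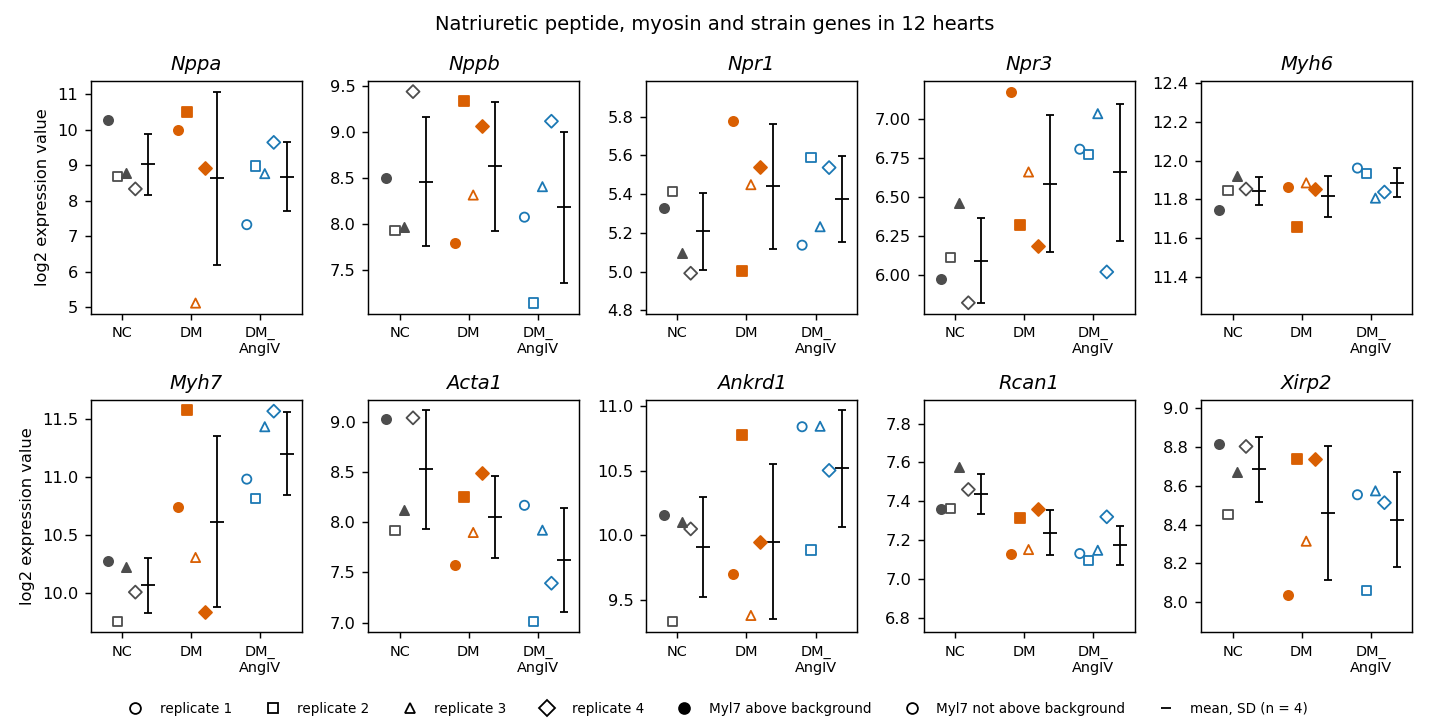
Log2 expression values of the 10 genes in the 12 hearts, by group, with 1 point per array (marker shape gives the replicate number of the label) and the mean with its SD beside each group of 4. Filled points are arrays with Myl7 above background. The vertical scales differ between genes, and Myh7 is the gene in which all 4 DM_AngIV arrays lie above all 4 NC arrays, while for Rcan1 all 4 lie below them.

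Heart muscle markers were high in every array, and the atrial marker Myl7 was above background in some. The mean of 6 cardiomyocyte markers lay between 10.998 and 11.16 in the 12 arrays. Myl7, the atrial myosin light chain, was above the background level of 4.96, the 95th percentile of 246 reporter control probe sets, in 2 NC and 3 DM arrays (7.90 to 10.08). In the other 7 arrays, all 4 of DM_AngIV among them, it lay between 3.53 and 4.28. Over the 6 atrial markers other than Nppa, the 4 NC arrays averaged 5.84 ± 1.501 (SD), the 4 DM arrays 6.14 ± 1.12 and the 4 DM_AngIV arrays 4.56 ± 0.11, and 1 of the 6, Bmp10, was not above background in any array. Myl4 lay between 7.88 and 9.99 in the arrays with Myl7 above background and between 5.10 and 6.02 in the other 7. Sln split in the same way (7.28 to 9.35 against 4.83 to 5.34), while Dkk3 overlapped (4.58 to 7.05 against 3.70 to 5.06). Myl4 and Stard10 (5.81 to 6.89) were above background in all 12 arrays. Whether arrays without Myl7 signal held atrial muscle was not tested. Of 9 skeletal muscle markers, 6 were not above background in any array. In RNA of whole tissue, fewer cells of a type and less RNA per cell cannot be told apart.

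Nppa, which encodes atrial natriuretic peptide, was the most variable of the 10 genes within groups, with a pooled SD of 1.60. In NC its values were 10.29, 8.70, 8.79 and 8.34 in replicates 1 to 4. In DM they were 9.999, 10.51, 5.12 and 8.93, and in DM_AngIV they were 7.33, 8.98, 8.77 and 9.65. The groups overlapped, and DM replicate 3 lay far below all other arrays, next to the background level. The log2 fold change was −0.39 ± 0.87 (SE) in DM against NC (limma adjusted p = 0.949), with a 95% confidence interval from −2.24 to 1.46. It was 0.041 in DM_AngIV against DM (interval −1.81 to 1.89) and −0.35 in DM_AngIV against NC (interval −2.20 to 1.504). The direction rested on single arrays. Without DM replicate 3 the value was 0.79 in DM against NC and −1.13 in DM_AngIV against DM, and without NC replicate 1 it was 0.031 in DM against NC and 0.072 in DM_AngIV against NC.

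The median of Nppa was higher in arrays with Myl7 above background, and a correlation of Nppa with atrial markers was not tested. The 5 arrays with Myl7 above background had Nppa values from 8.79 to 10.51 with a median of 9.999. The other 7 arrays had values from 5.12 to 9.65 with a median of 8.70, so these sets of arrays overlapped. In those 7 arrays the NC values were 8.70 and 8.34, the only DM value was 5.12, and the DM_AngIV values ran from 7.33 to 9.65. Without the arrays with Myl7 signal, the log2 fold change was −3.40 in DM against NC and 3.56 in DM_AngIV against DM, both resting on that 1 DM array, and 0.16 in DM_AngIV against NC. Fitted with atrial marker level as a covariate, it was −0.71, 1.76 and 1.05. No limma adjusted p for Nppa was below 0.327 under any alternative.

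**Figure D2:**
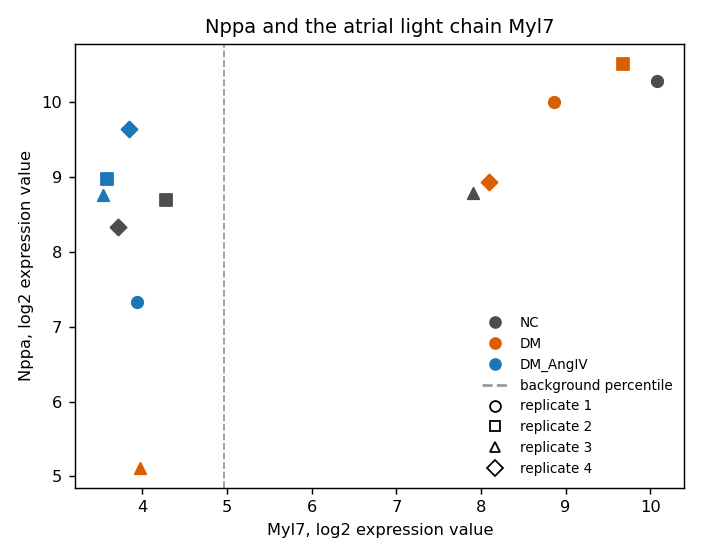
Nppa (vertical) against the atrial light chain Myl7 (horizontal), both as log2 expression values, with 1 point per array, colour for the group and shape for the replicate. Right of the dashed line at 4.96 lie 2 NC and 3 DM arrays, with Nppa between 8.79 and 10.51. The lowest point is DM replicate 3, with Nppa at 5.12.

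Nppb, which encodes brain natriuretic peptide and lies next to Nppa in the genome, did not follow Nppa over the arrays (r = 0.17). Its values in replicates 1 to 4 were 8.49, 7.93, 7.97 and 9.44 in NC. They were 7.80, 9.33, 8.31 and 9.06 in DM and 8.07, 7.14, 8.40 and 9.11 in DM_AngIV. The lowest value lay in DM_AngIV and the highest in NC, and the ranges of the 3 groups overlapped almost entirely. The log2 fold change was 0.17 ± 0.41 (SE) in DM against NC (limma adjusted p = 0.954), with an interval from −0.71 to 1.04. In DM_AngIV against DM it was −0.44 (interval −1.32 to 0.43), and in DM_AngIV against NC it was −0.27 (interval −1.15 to 0.60). The former value ranged from −0.75 without DM_AngIV replicate 4 to −0.095 without DM_AngIV replicate 2. Nppb in arrays with Myl7 signal (7.80 to 9.33, median 8.49) lay within its range in the others (7.14 to 9.44, median 8.31).

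Npr1, the cyclic GMP-forming receptor, was close to background in every group. It lay between 4.99 and 5.41 in NC, between 5.00 and 5.78 in DM and between 5.14 and 5.59 in DM_AngIV. Its largest log2 fold change was 0.23 ± 0.16 (SE), in DM against NC (limma adjusted p = 0.724).

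Npr3, the clearance receptor, had higher group means in both diabetic groups than in NC. Its values were 5.98, 6.11, 6.46 and 5.82 in NC. They were 7.18, 6.32, 6.66 and 6.19 in DM and 6.81, 6.77, 7.04 and 6.02 in DM_AngIV. Replicates 1 and 3 of DM and replicates 1, 2 and 3 of DM_AngIV were above every NC array, and the remaining diabetic arrays lay within the NC range. The log2 fold change was 0.49 ± 0.23 (SE) in DM against NC (limma adjusted p = 0.548) and 0.56 ± 0.23 in DM_AngIV against NC (0.265), and it was 0.071 in DM_AngIV against DM.

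Macrophage markers moved with Npr3. Their mean over 3 measured markers of the 4 listed, Csf1r, Adgre1 and Lyz2, lay between 6.41 and 6.66 in NC, between 6.50 and 7.36 in DM and between 6.35 and 7.24 in DM_AngIV. All 3 had positive log2 fold changes in DM against NC and in DM_AngIV against NC, and 0 of them were called. The 5 arrays with the highest marker mean (6.94 to 7.36) were the 5 with the highest Npr3 values, from 6.66 to 7.18, and the other 7 had Npr3 values from 5.82 to 6.46. This set of 5 was chosen after its values were seen, and the part of macrophages in the Npr3 values was not tested.

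Among the myosins, Myh6, the fast isoform, lay between 11.74 and 11.92 in NC, between 11.66 and 11.88 in DM and between 11.81 and 11.96 in DM_AngIV. Its log2 fold changes were −0.026 in DM against NC, 0.070 in DM_AngIV against DM and 0.044 in DM_AngIV against NC, with intervals from −0.23 to 0.27 over the 3 (lowest limma adjusted p 0.887). The highest value of the table was 12.53, so Myh6 was measured near the top of the scale, and saturation was not tested.

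Myh7, the slow isoform, showed the largest difference of the 10 genes. Its values in replicates 1 to 4 were 10.27, 9.75, 10.22 and 10.01 in NC. In DM they were 10.74, 11.58, 10.31 and 9.84, and in DM_AngIV they were 10.98, 10.82, 11.44 and 11.57. All DM_AngIV arrays were above all NC arrays, whereas the DM arrays spread from the lower part of the NC range to just above the highest DM_AngIV array. Means were 10.06 ± 0.24 (SD) for the 4 NC arrays, 10.62 ± 0.74 for the 4 DM arrays and 11.20 ± 0.36 for the 4 DM_AngIV arrays. In DM_AngIV against NC the log2 fold change was 1.14 ± 0.28 (SE), a 2.20-fold higher level, with an interval from 0.54 to 1.74 and a limma adjusted p of 0.0675, just short of the threshold. By unadjusted p (0.00103) Myh7 ranked 296th of the 19505 genes. In DM against NC the value was 0.55 (limma adjusted p = 0.608) and in DM_AngIV against DM it was 0.59 (0.677), with intervals from −0.047 to 1.15 and from −0.012 to 1.18 that included 0. Both rested on single DM arrays: without DM replicate 2 they were 0.23 and 0.91, and without DM replicate 4 they were 0.81 and 0.33.

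The side of the threshold on which Myh7 fell in DM_AngIV against NC depended on the fit. Its limma adjusted p was 0.0118 with only the 8 arrays of these groups, 0.0327 with only the genes at or above the median level and 0.0326 with the atrial covariate (log2 fold change 1.44). It was 0.119 with the replicate number as a block and between 0.0855 and 0.174 when any 1 array of the 2 groups was left out. The log2 fold change itself lay between 1.01 and 1.44 under all alternatives, and without the arrays with Myl7 signal it was 1.32, from 2 NC arrays and 4 DM_AngIV arrays (limma adjusted p = 0.0501).

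Within an array, the Myh7 value minus the Myh6 value sets the isoforms against each other, and its change between groups does not depend on the scaling of the array. It averaged −1.78 ± 0.26 (SD) over the 4 NC arrays, −1.20 ± 0.83 over the 4 DM arrays and −0.68 ± 0.43 over the 4 DM_AngIV arrays. The DM_AngIV arrays ran from −1.12 to −0.27 and did not overlap the NC arrays, which ran from −2.09 to −1.47. DM replicate 2, at −0.080, was the highest of all and DM replicate 4, at −2.02, the second lowest. The DM_AngIV and NC means differed by 1.09 (two-sided exact permutation test, p = 0.0286, adjusted over 3 comparisons p = 0.0857), where 0.0286 is the smallest p that 4 arrays against 4 allow. The differences of 0.58 for DM against NC (exact permutation p = 0.257) and 0.52 for DM_AngIV against DM (exact permutation p = 0.314) did not pass either. Without DM replicate 2 these differences were 0.20 and 0.89, and without DM replicate 4 they were 0.85 and 0.24. Between DM_AngIV and NC, Myh6 alone differed by 0.044 and Myh7 alone by 1.14. The within-array difference thus largely repeats the Myh7 values and is not a separate result. Myh6 and Myh7 are alike in sequence, and cross-hybridisation between their probes was not tested.

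**Figure D3:**
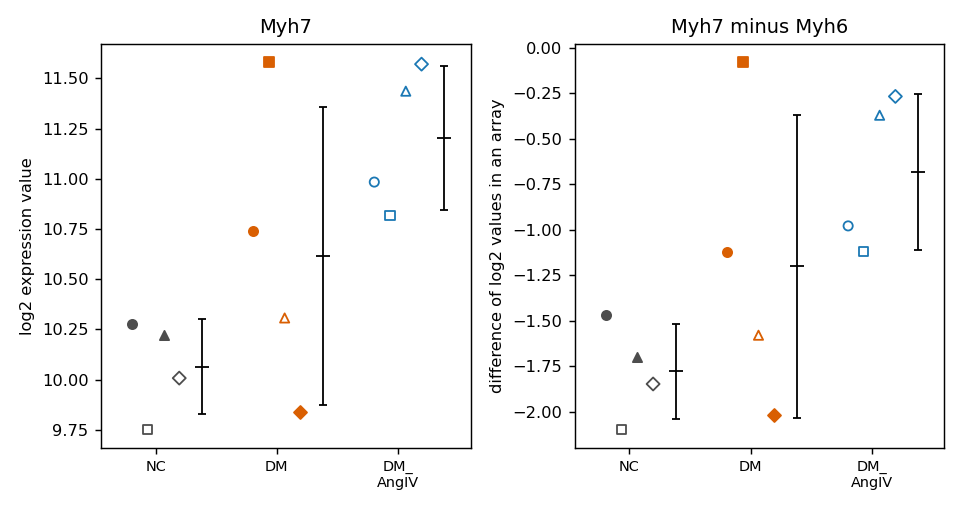
Left, Myh7 as log2 expression values. Right, the log2 value of Myh7 minus that of Myh6 in the same array. Each point is 1 array, with the mean and SD of each group of 4 beside it, filled where Myl7 was above background, and marker shapes give replicates 1 (circle), 2 (square), 3 (triangle) and 4 (diamond). The NC and DM_AngIV arrays do not overlap in either panel, and DM replicate 2 reaches the level of the DM_AngIV arrays.

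Acta1, the skeletal alpha actin that belongs to the fetal gene programme, had its highest group mean in NC. Its values were 9.03, 7.92, 8.13 and 9.04 in NC. They were 7.57, 8.26, 7.90 and 8.50 in DM and 8.17, 7.01, 7.92 and 7.39 in DM_AngIV. NC replicates 1 and 4 were above all other arrays, NC replicates 2 and 3 lay within the range of the diabetic groups, and DM_AngIV held the 2 lowest values. In DM_AngIV against NC the log2 fold change was −0.91 ± 0.29 (SE), with an interval from −1.52 to −0.29 (limma adjusted p = 0.152, and 0.0834 to 0.354 over the alternatives). It was −0.47 in DM against NC (limma adjusted p = 0.683) and −0.43 in DM_AngIV against DM (0.766). The direction was thus opposite to that of Myh7 in all 3 comparisons. The mean of 4 smooth muscle markers was 7.46 in NC replicate 1 and between 5.16 and 6.25 in the other 11 arrays, and its part in the Acta1 value of that array was not tested. Actins are also close in sequence, and cross-hybridisation was not tested.

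Ankrd1 encodes a cardiac ankyrin repeat protein that binds titin and also acts in the nucleus, and it is induced by stretch. It was 10.16, 9.33, 10.10 and 10.05 in NC. The DM values were 9.70, 10.78, 9.38 and 9.94, and the DM_AngIV values were 10.84, 9.88, 10.84 and 10.50. In DM_AngIV, 3 of the 4 arrays were above all NC arrays, as was DM replicate 2. The fitted difference was 0.041 in DM against NC (limma adjusted p = 0.985), 0.57 ± 0.28 (SE) in DM_AngIV against DM (0.679) and 0.61 ± 0.28 in DM_AngIV against NC (0.326). In DM against NC its sign turned with the alternatives, from −0.31 to 0.23.

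Xirp2, a Xin repeat protein that binds actin at the intercalated disc, had small differences. It lay between 8.45 and 8.82 in NC, between 8.04 and 8.74 in DM and between 8.06 and 8.57 in DM_AngIV. Fitted differences were −0.23 in DM against NC (limma adjusted p = 0.743), −0.032 in DM_AngIV against DM (0.980) and −0.26 in DM_AngIV against NC (0.507). The first of these was −0.088 without DM replicate 1 and −0.32 without DM replicate 2.

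Rcan1 encodes an inhibitor of the phosphatase calcineurin and is itself a target of calcineurin and NFAT. It was 7.36, 7.36, 7.58 and 7.46 in NC. The DM values were 7.13, 7.31, 7.15 and 7.36, and the DM_AngIV values were 7.13, 7.10, 7.15 and 7.32. All DM_AngIV arrays were below all NC arrays, by a small margin. Rcan1 had a log2 fold change of −0.27 ± 0.10 (SE) in DM_AngIV against NC (limma adjusted p = 0.237), −0.20 ± 0.10 in DM against NC (0.603) and −0.064 in DM_AngIV against DM (0.913). The 1 probe set does not separate the transcripts that start at the different Rcan1 promoters.

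**Figure D4:**
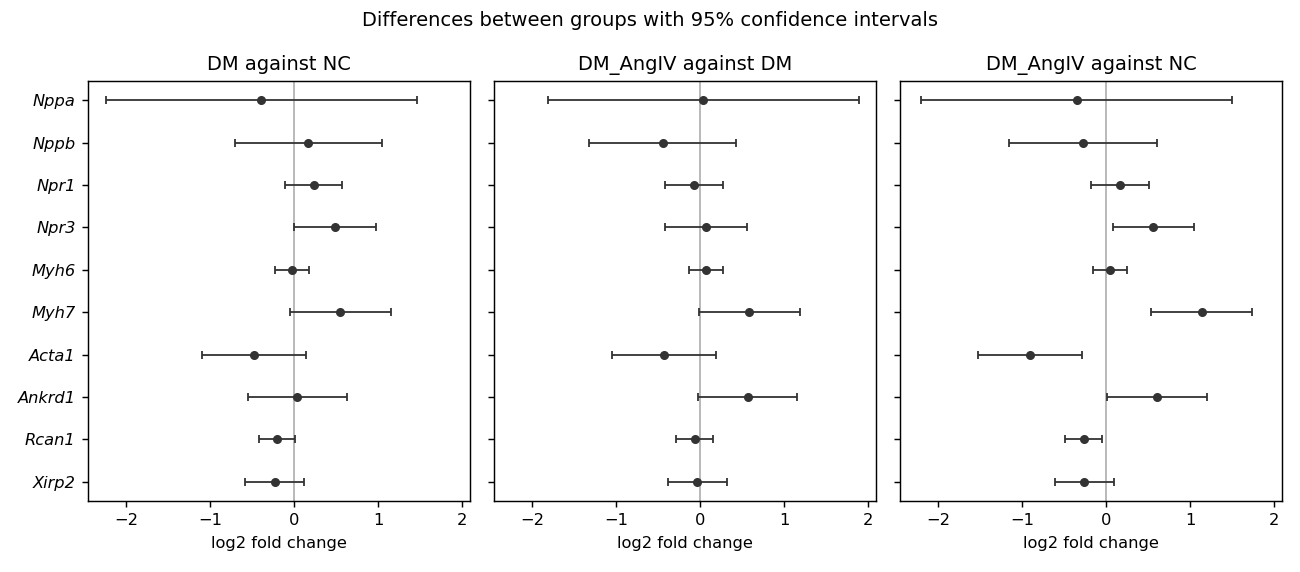
Log2 fold changes of the 10 genes (horizontal) in the 3 comparisons, with bars for the 95% confidence intervals of the limma fit over 12 arrays, not adjusted for the number of genes. In DM_AngIV against NC the intervals of Npr3, Myh7 and Ankrd1 lie above 0 and those of Acta1 and Rcan1 below it, and the interval of Nppa is the widest in each panel.

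Over all 12 arrays, most pairs of the 10 genes did not correlate past the threshold. Of 45 pairs of the 10 genes, 1 correlated past the threshold after adjustment over the pairs, Acta1 with Xirp2 (r = 0.83, permutation p = 0.00074, adjusted p = 0.0333; rho = 0.91, permutation p = 0.00013, adjusted p = 0.00585; n = 12 arrays). It was 0.82 for deviations from the group means and 0.73 without the 2 arrays farthest from the median of Acta1. The next pairs did not pass. Nppb with Xirp2 had r = 0.74 (permutation adjusted p = 0.0684; rho = 0.75, adjusted p = 0.107; n = 12), which was 0.82 for deviations from the group means and 0.55 without the 2 farthest arrays. Myh7 with Ankrd1 had r = 0.74 (permutation adjusted p = 0.0684; rho = 0.65, adjusted p = 0.146; n = 12), and 0.67 both for deviations from the group means and without the 2 farthest arrays. Npr3 with Rcan1 had r = −0.74 and Npr1 with Xirp2 had r = −0.73 (permutation adjusted p = 0.0684 each, n = 12). Myh7 and Acta1 had r = −0.44, and Nppa had no correlation beyond 0.57 in size with any of the other 9 genes. Deviations from the group means, which were not tested, gave other values for some pairs. Ankrd1 then had 0.80 with Xirp2, 0.67 with Acta1 and 0.62 with Nppb, and Nppb had 0.66 with Acta1. Myh7 had 0.062 with Acta1 and 0.27 with Xirp2, and Nppa had −0.021 with Acta1 and 0.14 with Xirp2.

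**Figure D5:**
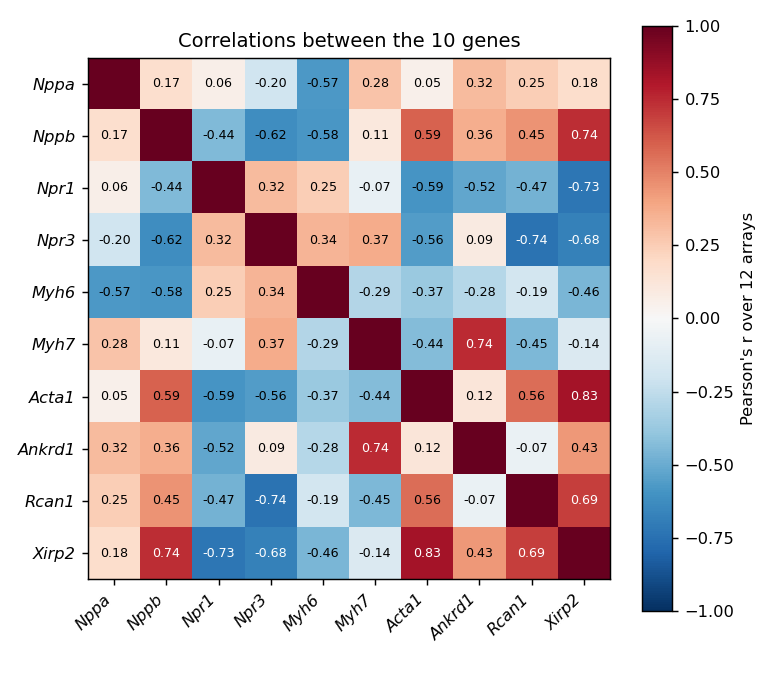
Pearson's r over the 12 arrays for each of the 45 pairs of the 10 genes, on a colour scale from −1 (blue) to 1 (red). Acta1, Xirp2 and Nppb are positive with each other (0.59 to 0.83), and Myh7 with Ankrd1 stands at 0.74, while Acta1 has −0.44 with Myh7 and 0.12 with Ankrd1. These values include differences between groups. For deviations from the group means, not drawn, Acta1 had 0.062 with Myh7 and 0.67 with Ankrd1.

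Across the whole table, the genes most like each of the 10 over the 12 arrays are given as a description, since they are the 3 with the highest r of 8167 genes above background and share the 12 arrays. Nppa was closest to Nrm (r = 0.82), Col8a1, a collagen chain, and Il1r1, an interleukin receptor (both 0.81). For Nppb these genes were Taf12, Sms (both 0.90) and Utp18 (0.85), and for Npr1 they were Necab3 (0.83), Pex14 (0.81) and Sst (0.78). Npr3 was closest to C3ar1, a complement receptor (0.95), Selenop (0.92) and Tbcd (0.91). Among the myosins, Myh6 was closest to Thoc2l (0.97), Atp2a2, the calcium pump of the sarcoplasmic reticulum (0.91), and Mad1l1 (0.89), and Myh7 to Lrrc58, Mcl1, a survival gene, and Eif4ebp1, an inhibitor of translation (all 0.94). Acta1 was closest to Ugp2 (0.91), Cdipt (0.89) and Myot, a Z-disc protein (0.88). For Ankrd1 they were Lrrc2 (0.92), Phldb2 (0.90) and Tnfrsf12a (0.89). Rcan1 was closest to Nrbp1 (0.95), Plrg1 and Stoml2 (both 0.89), and Xirp2 to Ankrd23, a relative of Ankrd1 (0.89), Vps36 (0.88) and Pter (0.87).

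Around the 10 genes, 5 lists held 86 pathway genes, of which 81 were measured. In DM against NC and in DM_AngIV against DM, 0 of them were called. In DM_AngIV against NC 3 were called, all higher, which is 3.70%, against the 0.728% of all genes that were called higher. These shares cover unlike genes. Between 42.8% and 43.3% of all genes were above background in an array. In each list only 1 to 4 measured genes were not above background in any array. The 3 called genes were Pde1c, Mylk3 and Myom2. The lists were drawn up with earlier results of these data known.

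In the natriuretic peptide and cyclic GMP pathway, 16 of 17 genes were measured, and 1 of them, Pde1c, a phosphodiesterase that breaks down cyclic GMP and cyclic AMP, was higher in DM_AngIV than in NC. It was 6.70, 6.95, 7.04 and 7.16 in NC and 7.49, 7.58, 7.52 and 7.57 in DM_AngIV, without overlap. The fitted difference was 0.58 ± 0.11 (SE), with limma adjusted p = 0.0245. The DM values, between 6.85 and 7.20, overlapped those of NC and lay below all those of DM_AngIV. The median log2 fold change of the list was 0.078, with 12 of 16 values positive. The call of Pde1c was lost without NC replicates 1 or 2 or DM_AngIV replicates 2, 3 or 4 (highest limma adjusted p 0.0766), with the replicate block (0.0541), with the atrial covariate (0.0812) and without the arrays with Myl7 signal (log2 fold change 0.48, 0.174).

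Among 20 measured genes of calcineurin, NFAT, MEF2 and GATA control, 0 were called in any comparison, and 14 of 20 had positive values in DM_AngIV against NC, with a median of 0.074. Ppp3ca, a catalytic subunit of calcineurin, had 0.52 with no overlap between the groups (limma adjusted p = 0.0774), and Hdac4, a repressor of MEF2, had 0.35 (0.270). Ppp3r1, the regulatory subunit of calcineurin, had 0.30 in DM_AngIV against DM (limma adjusted p = 0.643). Among 13 measured genes of myosin isoform control and thyroid hormone, 0 were called, and 6 of 13 were positive in DM_AngIV against NC, with a median of −0.068. Hopx, a regulator of cardiac growth, had −0.32 in DM against NC (limma adjusted p = 0.465) and Rxrg, a partner of the thyroid hormone receptor, had −0.27 in DM_AngIV against NC (0.432). The deiodinase Dio1 was not above background in any group.

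Of 14 other sarcomere isoforms, 1 was called, Mylk3, the cardiac kinase of the ventricular light chain. It lay between 8.54 and 9.08 in NC, between 8.72 and 9.30 in DM and between 9.44 and 9.68 in DM_AngIV. The log2 fold change in DM_AngIV against NC was 0.69 ± 0.15 (SE), with limma adjusted p = 0.0333. It did not pass without NC replicates 1 or 2 or any 1 of the 4 DM_AngIV arrays (highest limma adjusted p 0.101), with the replicate block (0.0757), with the atrial covariate (0.0865) or without the arrays with Myl7 signal (0.126). The log2 fold change stayed between 0.59 and 0.77 under all alternatives, and was 0.65 without the arrays with Myl7 signal. The list had 9 of 14 positive values and a median of 0.021.

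Of 18 ankyrin repeat, Xin and Z-disc genes, 1 was called, Myom2, an M-band protein that links myosin to titin. It was 9.56, 9.70, 9.85 and 9.89 in NC, 10.29, 10.61, 9.90 and 9.96 in DM and 10.36, 10.63, 10.73 and 10.78 in DM_AngIV. Neither diabetic group overlapped NC, and as with Myh7, DM replicates 1 and 2 were the higher DM arrays. In DM_AngIV against NC the log2 fold change was 0.87 ± 0.15 (SE), with limma adjusted p = 0.0128, and in DM against NC it was 0.44 (0.396). The call was kept when any 1 array was left out and lost without the arrays with Myl7 signal (log2 fold change 0.83, limma adjusted p = 0.0682). The list had 10 of 18 positive values and a median of 0.032.

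A further light chain was named after its values were seen. Myl1, a light chain of fast skeletal muscle that had been listed as a skeletal muscle marker, fell in DM_AngIV against NC by 1.46 on the log2 scale (limma adjusted p = 0.0013). It lay between 7.60 and 7.96 in NC, between 6.75 and 7.15 in DM and between 6.00 and 6.88 in DM_AngIV. The other 8 skeletal muscle markers had 0 calls in that comparison. Without the arrays with Myl7 signal the value was −1.41 (limma adjusted p = 0.0501). With all arrays, Myl1 was also lower in DM than in NC, by 0.87 and without overlap (limma adjusted p = 0.101). In DM_AngIV against DM its log2 fold change was −0.59 (limma adjusted p = 0.511).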

How the data were processed

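RNA of myocardium of 12 mice was measured on single-colour arrays. The authors deposited log2 values made by RMA, per the submitters' processing notes. Its software version is not given in the sources used. Probe sets were named from the platform annotation, keeping the one with the highest mean per symbol. A gene at or below 4.96, the 95th percentile of 246 reporter control probe sets, throughout a group is described as not above background. Precision is limited by the number of arrays.

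Groups were compared with limma 3.58.1 (lmFit, eBayes) in R 4.3.3, as contrasts of 1 model over 12 arrays, with two-sided tests and Benjamini-Hochberg adjustment over 19505 genes. The code was tested on simulated data. Differences within arrays were tested by exact permutation, and correlations with 100000 permutations (scipy 1.17.1).

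The members, lists and tests were chosen with earlier results of these data known. Named are all members, list genes that passed (otherwise the 3 with the smallest p), and the 3 genes closest to each member, from genes above background. Marker lists covered atrial, ventricular and other cardiomyocytes, skeletal and smooth muscle, fibroblasts, endothelium, macrophages and adipocytes. The labels give no scan date and name no litter, and p-values measure the spread between these mice. Alternatives covered the threshold, arrays in the fit, dim genes, the replicate block, probe sets, scaling, array weights, the variance prior, atrial signal and each array left out.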

Additional observations from a re-analysis of the deposited data

Results flagged for a closer look

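In 3 of the 60 groups of 4 arrays examined, 1 array stood apart from the other 3 by more than Dixon's 95% critical value for the gap over the range, and chance alone marks about 1 in 20 groups. Myh6 in DM replicate 2 was 11.66, where the other DM arrays lay between 11.85 and 11.88. This is the DM array with the highest Myh7 value. Ankrd1 in NC replicate 2 was 9.33, where the other NC arrays lay between 10.05 and 10.16. Xirp2 in DM_AngIV replicate 2 was 8.06, where the others of the group lay between 8.51 and 8.57, and this array also had the lowest Nppb and Acta1 values of all 12.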

How the results depend on the processing

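Over the alternatives, 532 of 570 values of the 10 genes kept their direction and their side of the threshold. This count used 0.05 throughout, also for the alternative threshold of 0.1. Direction could not change with the threshold, the 8 arrays alone, the dim genes left out, the replicate block or the variance prior. Nor could it change with the mean of probe sets, as each gene had 1 probe set. Myh7 in DM_AngIV against NC passed in 3 fits, so the count of called members was 1 rather than 0 with only the 8 arrays, without genes below the median level and with the atrial covariate, and also 1 at an adjusted p below 0.1. All other counts of called members were 0.

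Counts of called genes in DM against NC, 3 over all arrays, were 17 at 0.1, 20 without dim genes, 28 with the trended robust prior and 0 once arrays showing atrial signal were dropped, which leaves 1 DM array, assumed to vary like the others. In DM_AngIV against NC, 198 became 509, 492, 514 and 50 in these fits and 115 with the replicate block. With 1 array left out the counts ran from 2 to 30 in DM against NC, from 0 to 5 in DM_AngIV against DM and from 81 to 167 in DM_AngIV against NC.

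The following values, all uncalled, changed sign, and the cause was not tested. In DM against NC, Ankrd1 was −0.0054 with array weights and −0.036 with the atrial covariate. With those arrays dropped, Nppb was −0.37, Myh6 0.035 and Ankrd1 −0.31 there, and Npr3 was −0.0028, Rcan1 0.022 and Xirp2 0.11 in DM_AngIV against DM. With the covariate Xirp2 was 0.069 in DM_AngIV against DM, while Nppa was 1.05 and Myh6 −0.0062 in DM_AngIV against NC, where Nppa was 0.16 without these arrays.

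With 1 array left out, DM against NC gave −1.01 to 0.79 for Nppa, −0.066 to 0.49 for Nppb, −0.058 to 0.026 for Myh6 and −0.24 to 0.23 for Ankrd1. DM_AngIV against DM gave −1.13 to 0.67 for Nppa, −0.21 to 0.043 for Npr1, −0.061 to 0.28 for Npr3 and −0.17 to 0.089 for Xirp2. DM_AngIV against NC gave −0.67 to 0.10 for Nppa and −0.58 to 0.073 for Nppb. The difference of Myh7 and Myh6 kept its direction in all 3 comparisons, and 3 arrays against 4 cannot reach an exact p below 0.0571.

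Same-numbered arrays did not deviate together (r from −0.098 to 0.17 over 12 pairs, the own number being the closest in 3), so the replicate block rests on a shared number alone. It left 0 members called, and Myh7 in DM_AngIV against NC had a limma adjusted p of 0.119. Precision is limited by the number of arrays, and for Npr1 by signal close to background.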
